A study of Mus musculus with 3 samples.

Results

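Blastocysts collected 12 h after an estradiol injection that ends delayed implantation (reactivated) were set against dormant blastocysts collected without it, gene by gene, for reads in exons and for reads in introns. A gene entered the comparison when the library with the higher level, scaled for its total, held at least 50 of its exon reads, which left 10556 of the 31510 genes in the tables. The series holds 3 libraries, and the third, taken 6 h after estradiol, was not used for any ratio here. CD-1 mothers, 2 months old, were ovariectomised on day 4 of pregnancy and given 2 mg of progesterone per mouse each day from day 5 to day 7. Both groups carried these treatments. Dormant blastocysts were flushed from the uterus on the morning of day 8, and the mothers of reactivated blastocysts received estradiol (E2) on day 7 and were killed 12 h later. E2, the hour of collection and the age of the embryo therefore changed together and cannot be told apart. Each state was a pool of more than 3000 blastocysts sequenced as 1 library, so no difference below had a replicate check, and no p-value or SD was possible. A pool also mixes trophectoderm, epiblast and primitive endoderm, and in such bulk RNA fewer cells of a type and less RNA per cell cannot be told apart.

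Delayed implantation, or embryonic diapause, is the state in which a mouse blastocyst stops proliferating in a uterus that has progesterone but lacks the surge of ovarian estrogen that opens it to the embryo. Estrogen makes the uterus receptive, and the embryo then resumes growth, its outer layer, the trophectoderm, becoming competent to attach. A growing blastocyst takes up sugars, amino acids and iron through carriers in the trophectoderm, whereas a dormant one is known for recycling its own material through autophagy and lysosomes. Ribosomal RNA depletion keeps RNA that has not been spliced, so the reads in introns come mainly from precursor RNA, while reads in exons come mainly from the far more abundant spliced RNA.

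The dormant library held 9298675 reads in exons and 3554921 in introns, and the reactivated library 12941447 and 3982790. Introns took 27.7% of the exon and intron reads in the dormant library and 23.5% in the reactivated one. Reads on the strand opposite to an annotated gene came to 3.61% and 4.52% of the library totals. All ratios below are reactivated over dormant, scaled to the library totals that underlie the authors' RPKM (reads scaled to the exon length and the library total), 14118723 and 18982195 reads. Genes of olfactory and vomeronasal receptors, 1174 in number and not known to act in blastocysts, held 353 exon reads in the dormant library and 822 in the reactivated one. That is a background of less than 1 read per gene in each library. The ratio of a gene is followed by its exact 95% interval for the 2 read counts, which covers counting error only, while read counts are given as deposited, not scaled for the larger reactivated library.

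Of the 10556 genes, 703 were at least 2 times higher in reactivated blastocysts (6.66%) and 1212 were at most 0.5 times the dormant level (11.5%). Falls thus outnumbered rises, with a median log2 ratio of -0.06 over all genes. The interval excluded equal levels for all 703 and all 1212, which the limits on ratio and reads fix in advance. It lay entirely past a ratio of 2 for 336 and 659 of them. The balance moved with the scaling and with the kind of read. Median-ratio scaling subtracts from every log2 ratio the median, -0.11, over genes with at least 10 exon reads in both libraries, which puts the median of the 10556 genes at 0.04. With it 897 genes were higher and 975 lower, so that the higher genes made up 47.9% of both in place of 36.7%. By reads across splice junctions, with library totals, 497 genes were higher and 493 lower of 4790 with enough such reads. With median-ratio scaling 312 of the 333 called genes chosen to be named kept their call. It moves every log2 ratio up by the same amount, so no rise could lose its call, and only falls close to the limit could. The falls of Atp8a1, Cd68, Cnnm3, Efnb2, Esrrb, Fosb, Foxh1, Grhl2, Igf1r, Il3ra, Klf4, Klf5, Lats2, Lrp4, Neo1, Nodal, Pdgfrb, Plxnb2, Rab24, Slc1a5 and Slc25a38 then ended short of the limit, at log2 ratios of -0.91 to -0.99. Many genes stood close to the limit, with 184 rises between ratios of 2 and 2.2 and 296 genes between 1.8 and 2, and 303 falls just past the limit against 366 just short of it. Near the minimum of reads, 198 genes with 45 to 49 reads in the higher library stayed out and 191 with 50 to 54 came in. Protein-coding genes, 9575 in number, held 562 rises and 1032 falls. Small RNA genes moved more often, with 45 rises and 79 falls among 263, and pseudogenes rose more often than they fell, with 56 against 29 of 324.

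The 12 largest rises among genes with a proper symbol began with Prap1, a proline-rich acidic protein of epithelia that rose from 0.70 to 35.4 RPKM (6 and 408 exon reads). Its ratio was 50.6-fold (23.04 to 139), and 1 and 92 reads crossed its splice junctions. Hcrtr1, a receptor for the neuropeptide orexin, had 1 and 65 exon reads, a ratio of 48.4-fold (8.38 to 1939) from a level close to background. Saa3, a serum amyloid protein of the acute phase, rose from 2.67 to 47.3 RPKM, and Dmkn, a secreted protein of stratified epithelia, from 2.49 to 27.8 RPKM. The transcripts of both were low in dormant and abundant in reactivated blastocysts. Adamts8, Prnd, Ska1 (a kinetochore protein) and Exoc3l rose from levels of 0.06 to 1.24 RPKM in dormant blastocysts, while Slc16a3, Plpp1, Slc40a1 and Pgk1 are described with their families. In the dormant library Adamts8, Prnd and Exoc3l had 9, 8 and 2 exon reads, fewer than the 44, 9 and 12 on their opposite strands.

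Among the 12 largest falls, Papln, an extracellular matrix protein, dropped from 12.03 to 0.84 RPKM (743 and 70 exon reads), or 14.3-fold (11.2 to 18.5) lower. Gpnmb, a membrane glycoprotein of lysosomes and melanosomes, dropped from 22.4 to 1.76 RPKM, or 12.7-fold (10.01 to 16.2) lower. Neil2, a DNA glycosylase of base excision repair, fell from 2.52 to 0.14 RPKM, and Rhbdl3, a rhomboid family protein, from 1.67 to 0.12 RPKM. Ahnak2, which the tables list under 2 gene identifiers, fell under both, with 309 and 35 reads under the longer model. The remaining 6, Gjb2, Arl14, Rspo3, Arg1, Cda and Neu3, are described below with the classes they belong to.

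Intron ratios could be set beside exon ratios for 7356 genes, those with at least 50 intron reads in the higher library as well. Their median log2 ratio was -0.05 for exons and -0.21 for introns, and across these genes the pair of ratios had a Pearson r of 0.58, a description over genes that share the same 2 libraries. Intron reads were higher for 241 genes (3.28%) and lower for 562 (7.64%). Of the 406 genes in this set whose exon reads were higher, 121 also passed in introns (29.8%), and the median intron log2 ratio was 0.60 against 1.28 in exons. Of the 712 whose exon reads were lower, 259 passed in introns (36.4%), with a median of -0.77 in introns against -1.30 in exons. Introns went past the limit in the opposite direction for 5 of the 406 and 1 of the 712. Genes called in exons thus mostly had intron ratios on the same side of equal levels, 332 of 406 and 645 of 712, but smaller ones, the genes having been selected on the exon ratio.

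**Figure D1:**
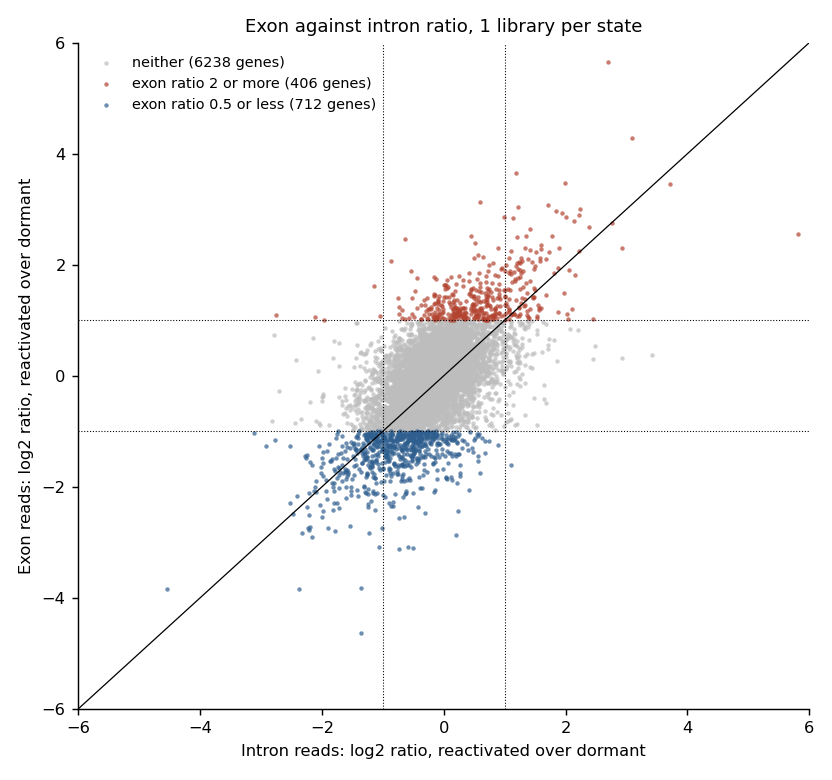
Log2 ratio of intron reads (horizontal) against log2 ratio of exon reads (vertical), reactivated over dormant, for the 7356 genes with at least 50 reads of each kind in the higher library; dotted lines mark ratios of 2 and 0.5 and the solid line equal ratios. The 406 genes higher in exons (red) mostly lie above the solid line and the 712 lower ones (blue) mostly below it, with intron medians of 0.60 and -0.77.

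Exon and intron ratios parted by 2 times or more in a minority of genes. The exon ratio was at least 2 times the intron ratio in 458 genes (6.23%), of which 144 were higher in exons, 4 lower and 310 neither. It was at most 0.5 times the intron ratio in 292 genes (3.97%), of which 164 were lower in exons and 3 higher. This balance depended on the scaling, since with exon reads scaled to the exon total and intron reads to the intron total the 2 counts turned to 170 and 692. A small RNA gene lay within the span of 73 of the 458 genes, and of 1186 of all 7356. Of the 10 genes with the largest excess of exon over intron ratio, 6 hold a small RNA gene within their span, among them Ranbp1, a partner of the Ran GTPase, whose exon reads were 533 and 1537 and intron reads 2729 and 542. Ipo7, an import receptor for ribosomal proteins that holds 2 small RNA genes, had 2183 and 4889 exon reads and 42884 and 8361 intron reads. Sf3b4, Haus6, Ckap5 and Rpl39 showed the same arrangement, and whether their intron reads came from the small RNA was not tested. Of the 10 with the largest excess of intron over exon ratio, 8 had intron reads below 4 times their opposite-strand reads in at least 1 library, as did 205 of the 292 and 2249 of all 7356. Trpm1, for example, had 122 and 116 intron reads beside 39 and 109 opposite-strand reads, and Patl2, Myo7b, Acer1, Spata13, Rhbdl3, Rspo3 and Dsg3 are the others.

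When genes with a nested small RNA and genes with intron reads below 4 times the opposite-strand reads were both left out, 4161 genes remained, with 286 exon ratios above and 65 below the intron ratio by 2 times or more. Among those, named after their values were seen, Stip1, a co-chaperone of Hsp90, rose in exons from 42.9 to 113 RPKM (2.62-fold, interval 2.46 to 2.8), while its intron reads were 1024 and 814. Taf4b, a subunit of the transcription factor TFIID, rose from 4.29 to 15.9 RPKM with 158 and 147 intron reads, and Snrpf, a core spliceosome protein, from 1.65 to 9.45 RPKM with 71 and 130. In these 3 the exon level rose while the intron ratio, at log2 -0.76, -0.53 and 0.45, stayed inside the limits, and Snrpf has near-identical copies that make its level uncertain. Myl12b, a myosin light chain, had 687 and 5102 exon and 464 and 402 intron reads, but only 117 and 212 reads across junctions, and it shares sequence with the paralog Myl12a, so its value is uncertain. The opposite pattern was seen in Rfc3, a subunit of the clamp loader of DNA replication, whose exon levels were 8.8 and 10.97 RPKM (log2 ratio 0.32) and intron reads 16 and 164. Commd2, a COMM domain protein, had exon levels of 11.2 and 14.5 RPKM and 5 and 72 intron reads. Spns1, a lysosomal lipid carrier, dropped from 28.2 to 8.38 RPKM (3.36-fold lower, interval 2.96 to 3.82), while its intron reads were 31 and 63.

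Carriers, pumps and channels were the first of the classes examined. Of 340 measured genes in 9 lists, 21 were higher (6.18%, against 6.66% of all genes) and 59 lower (17.4%, against 11.5%), with a median of -0.14 against -0.06. The rises were thus about as frequent as in genes at large and the falls more frequent, and with median-ratio scaling 24 rose and 51 fell (7.06% and 15%, against 8.5% and 9.24%). In this class and the next ones, members beyond the strongest 4 of a list in each direction, 112 in all and among them every member given as not called, were picked after their values were seen. The 29 measured amino acid carriers held 5 rises and 6 falls (median 0.03). Slc1a1 (ENSMUSG00000024935, GRCm38 chromosome 19, 28835049 to 28913960), a high-affinity carrier of glutamate, aspartate and cysteine, rose from 24.01 to 135 RPKM (1267 and 9592 exon reads, 5.63-fold, interval 5.31 to 5.97). Its intron reads rose too, from 1051 to 3265 (2.31-fold, interval 2.15 to 2.48). Slc6a14, a sodium- and chloride-driven carrier of neutral and cationic amino acids, rose from 38.5 to 109.5 RPKM (2.85-fold, interval 2.69 to 3.01), with intron reads of 274 and 565 (log2 0.62). Slc7a7, the y+L carrier of cationic amino acids, rose from 7.35 to 16.2 RPKM, and Slc1a3, a glutamate carrier of astrocytes, from 1.92 to 4.49 RPKM. The proton-coupled peptide carriers went in opposite directions. Slc15a1 rose from 0.32 to 1.54 RPKM on 14 and 91 exon reads, and Slc15a2, by far the more abundant, fell from 115 to 36.9 RPKM (3.11-fold lower, interval 2.98 to 3.26), with intron reads of 1549 and 626 (3.33-fold lower, interval 3.03 to 3.66). The glutamine and neutral amino acid carrier Slc1a5 fell from 23.4 to 11.3 RPKM, and the taurine carrier Slc6a6 from 20.4 to 9.44 RPKM with 745 and 502 intron reads. The carrier of large neutral amino acids, Slc7a5, was not called, with 16.7 and 22.9 RPKM, nor was its partner Slc3a2, with 107 and 132 RPKM. The creatine carrier Slc6a8, in none of the lists, fell from 119 to 40.99 RPKM (2.91-fold lower, interval 2.79 to 3.04, 762 and 285 intron reads).

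Among 23 measured carriers of sugars and carboxylates, 2 rose and 6 fell (median -0.27). Slc16a3 (ENSMUSG00000025161, chromosome 11, 120948480 to 120960868), the lactate exporter MCT4 of glycolytic cells, rose from 0.69 to 13.4 RPKM (23 and 600 exon reads, 19.4-fold, interval 12.8 to 30.9), and its intron reads from 6 to 69. Emb, the embigin chaperone of monocarboxylate carriers, rose from 1.45 to 5.77 RPKM. The other lactate carrier, Slc16a1, was not called, with 77.5 and 84.5 RPKM, nor were the glucose carriers Slc2a3, with 344 and 358 RPKM, and Slc2a1, with 47.8 and 82.2 RPKM. Among the falls, Slc2a12, a glucose carrier, dropped from 5.25 to 1.2 RPKM, Slc13a2, a carrier of citrate and succinate, from 9.07 to 1.67 RPKM (5.43-fold lower, interval 4.17 to 7.17), and Slc5a11, a myo-inositol carrier, from 27.4 to 7.66 RPKM. Intron reads of Slc13a2 and Slc5a11 fell as well, to 3.96-fold (3.13 to 5.05) and 2.19-fold (1.86 to 2.58) lower. Slc5a6, the carrier of biotin and pantothenate, fell from 21.4 to 8.07 RPKM.

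Metal carriers, 32 measured, held 3 rises and 4 falls (median 0.00). Slc40a1 (ENSMUSG00000025993, chromosome 1, 45908068 to 45926523), ferroportin, the exporter of iron from cells, rose from 6.33 to 69.7 RPKM (11.01-fold, interval 9.79 to 12.4), with intron reads from 24 to 422 (13.1-fold, interval 8.67 to 20.6). The zinc exporters Slc30a1 and Slc30a2 rose from 4.97 to 36.8 RPKM (7.4-fold, interval 6.65 to 8.26) and from 2.87 to 7.2 RPKM. The zinc importer Slc39a4 fell from 13.8 to 4.5 RPKM (3.06-fold lower, interval 2.57 to 3.65), and Steap3, the endosomal reductase of transferrin-bound iron, from 5.92 to 2.33 RPKM. These exporters of zinc and iron thus rose while a zinc importer and an iron reductase fell, although the transferrin receptor Tfrc, which brings iron in, rose from 7.34 to 18.9 RPKM (2.58-fold, interval 2.25 to 2.95), with intron reads from 58 to 177. Heme carriers parted as well, Flvcr1 rising from 0.81 to 2.24 RPKM and Flvcr2 falling from 10.2 to 2.24 RPKM (4.58-fold lower, interval 3.8 to 5.54). Cnnm3 and Cnnm4, proteins of magnesium transport, fell by log2 ratios of -1.07 and -1.75.

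Carriers of nucleosides, vitamins, lipids and organic ions, 63 measured, held 5 rises and 11 falls (median -0.05). Slc28a3 (ENSMUSG00000021553, chromosome 13, 58545399 to 58610877), a concentrative carrier of purine and pyrimidine nucleosides, rose from 24.9 to 120.2 RPKM (4.84-fold, interval 4.59 to 5.1), with intron reads from 867 to 3535 (3.03-fold, interval 2.81 to 3.27). Its relative Slc28a1 fell from 2.62 to 0.61 RPKM on 109 and 34 exon reads, beside 128 opposite-strand reads in the dormant library. Slc44a4, a choline and thiamine pyrophosphate carrier, rose from 10.5 to 43.9 RPKM (4.18-fold, interval 3.72 to 4.71), with introns from 89 to 359. Slc19a1, the reduced folate carrier, rose from 2.8 to 6.22 RPKM, while Slc46a1, the proton-coupled folate carrier, fell from 34.2 to 14.5 RPKM. The carnitine carriers also went apart, Slc22a4, which prefers ergothioneine, rising from 3.95 to 8.97 RPKM and Slc22a5, the high-affinity carnitine carrier, falling from 34.4 to 9.97 RPKM (3.45-fold lower, interval 3.13 to 3.8, intron reads 1031 and 578). Slco4c1, an organic anion carrier, fell from 6.1 to 1.39 RPKM. The ascorbate carrier Slc23a1 fell from 1.56 to 0.25 RPKM, but 435 and 680 reads lay on its opposite strand.

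A few falls were of lysosomal membrane proteins, drawn across lists after their values were seen and because they fell, so that they carry no count. The cystine exporter Ctns fell from 8.51 to 3.69 RPKM, the sialic acid exporter Slc17a5 from 11.5 to 3.3 RPKM (3.49-fold lower, interval 2.97 to 4.12), Slc46a3 from 4.68 to 1.27 RPKM and the calcium channel Mcoln1 from 18.8 to 7.95 RPKM. Atp6ap1, an accessory subunit of the proton pump that acidifies lysosomes, fell from 124 to 52.05 RPKM (2.39-fold lower, interval 2.27 to 2.52). The intron reads of Atp6ap1, Mcoln1 and Ctns were 213 and 215, 100 and 109 and 57 and 72, none of them past the limit. The catalytic pump subunit Atp6v1a was not called, at 47.1 and 49.5 RPKM, nor was Atp6v0a1, at 3.55 and 4.05 RPKM. The 41 pumps and flippases as a list held 1 rise, Atp2c2, and 4 falls, which besides Atp6ap1 were Tmem30b, Atp12a and Atp8a1 (median -0.06). Atp2c2 had 18 and 59 exon reads and more on its opposite strand, 33 and 82.

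Other carrier lists held few rises. Ion and proton carriers, 22 measured, held 1 rise and 6 falls (median -0.35), the rise being Slc34a2, a sodium-phosphate carrier of epithelia, from 2.38 to 11.1 RPKM (4.67-fold, interval 3.9 to 5.62). Among the falls were the sodium-proton exchanger Slc9a5 and the ion carrier Slc4a11. Mitochondrial carriers, 40 measured, held 1 rise (Slc25a31, an adenine nucleotide carrier of germ cells) and 2 falls (Slc25a23, a calcium-dependent carrier of ATP and phosphate, and Slc25a38, a glycine carrier), with a median of 0.12. ABC transporters, 24 measured, held 1 rise and 5 falls (median -0.30). The rise was Abce1, a factor of ribosome recycling that is no membrane carrier, from 23.6 to 49.2 RPKM. Among the falls, Abca3, a lipid carrier of lysosome-related organelles, fell from 30.03 to 13.9 RPKM (2.15-fold lower, interval 2.03 to 2.29).

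Channels and gap junction genes, 68 measured, held 2 rises and 15 falls (2.94% and 22.1%, median -0.49). Gjb2 (ENSMUSG00000046352, chromosome 14, 57098600 to 57104702), connexin 26, fell from 190.1 to 13.2 RPKM (6421 and 599 exon reads, 14.4-fold lower, interval 13.2 to 15.7), and its intron reads from 296 to 17 (23.4-fold lower, interval 14.4 to 40.7). The connexins Gjb5, with 36.8 and 50.1 RPKM, and Gja1, with 7.15 and 10.2 RPKM, were not called, so that the fall was seen in 1 of these 3. All 3 subunits of the epithelial sodium channel fell together. Scnn1a fell from 16.1 to 3.82 RPKM (4.21-fold lower, interval 3.65 to 4.87), Scnn1b from 22.6 to 8.1 RPKM (2.79-fold lower, interval 2.47 to 3.16) and Scnn1g from 12.3 to 2.77 RPKM (4.46-fold lower, interval 3.73 to 5.37). Their intron reads fell to 3.5-fold (2.39 to 5.24), 4.79-fold (4.08 to 5.65) and 5.32-fold (4.11 to 6.97) lower, the intron ratio of Scnn1b being the larger, with an interval apart from that of its exons. The water channel Aqp8 fell from 59.4 to 19.4 RPKM with 88 and 143 intron reads, and Aqp3 was not called, at 109 and 99.6 RPKM. The purinergic channel P2rx4 fell from 10.9 to 2.58 RPKM. The rises, both low, were the potassium channel Kcnk1, from 0.22 to 1.76 RPKM, and the calcium-activated chloride channel Ano1, from 0.50 to 1.66 RPKM. Kcnk1 had 6 and 66 exon reads, none across junctions, and 12 and 55 reads on its opposite strand. Ano1 had 32 and 144 exon reads beside 39 and 132 on its opposite strand, so both rises are uncertain.

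**Figure D2:**
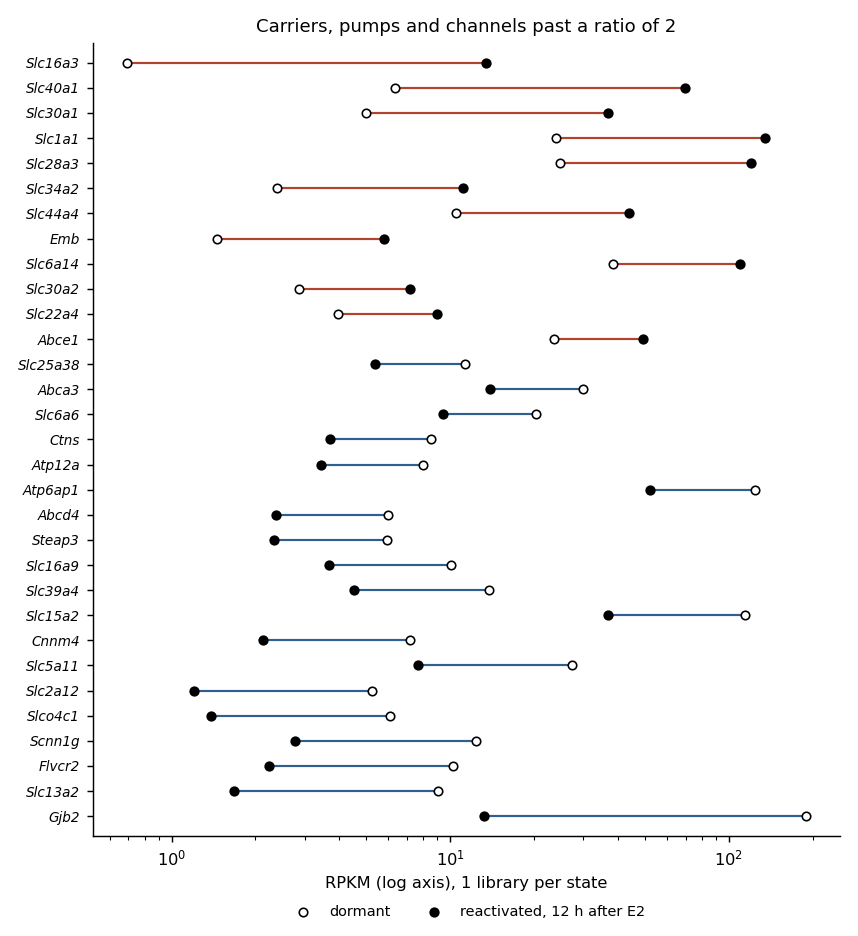
RPKM (log axis) in the dormant (open circle) and reactivated (filled circle) library of the 31 named carriers, pumps and channels that reached 5 RPKM in either library, 1 library per state, ordered by ratio. The 12 genes at the top rose (red), Slc16a3 from 0.69 to 13.4 RPKM, and the 19 below fell (blue), Gjb2 from 190.1 to 13.2 RPKM.

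Transcription factors fell more often than genes at large and rose less often. Of 599 measured in 9 lists, 19 were higher (3.17%) and 95 lower (15.9%), with a median of -0.27 in exons and -0.37 in introns over the 392 with enough intron reads, against -0.21 for introns of all genes. With median-ratio scaling, 29 rose and 78 fell (4.84% and 13%). The 20 measured KLF, SP and EGR factors held 1 rise and 8 falls (median -0.77). Klf15, a regulator of amino acid and glucose metabolism, fell from 14.4 to 3.42 RPKM (4.21-fold lower, interval 3.53 to 5.06, intron reads 235 and 83), and Klf3, a repressor, from 17.9 to 5.71 RPKM (intron reads 667 and 222). Klf2, Klf4 and Klf5, which act in the pluripotency network of the inner cell mass, fell from 7.45 to 2.12 RPKM, 8.07 to 3.97 RPKM and 127 to 62.05 RPKM. Introns of Klf2 and Klf5 had log2 ratios of -1.99 and -0.96. The immediate early factor Egr1 fell from 5.03 to 1.66 RPKM, and the 1 rise was Sp8, from 0.40 to 1.13 RPKM.

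Of 32 bZIP factors, none was higher and 7 were lower (median -0.46). The AP-1 subunits Jund (74.01 to 22 RPKM), Junb (47.2 to 12.5 RPKM), Fos (49.8 to 17.6 RPKM), Jun (19.2 to 7.86 RPKM) and Fosb (3.74 to 1.8 RPKM) all fell, by 3.37-fold (3.08 to 3.68), 3.79-fold (3.27 to 4.4), 2.83-fold (2.58 to 3.1), 2.44-fold (2.18 to 2.73) and 2.08-fold (1.66 to 2.62). Several AP-1 genes, Fos and Junb among them, are known as immediate early genes, switched on within minutes of a growth signal. Ddit3, or CHOP, a factor of endoplasmic reticulum stress, fell from 24.4 to 8.79 RPKM with 224 and 125 intron reads, and the circadian output factor Tef from 3.49 to 0.87 RPKM. Atf4, which acts upstream of Ddit3, was not called, at 141 and 115 RPKM.

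Of 36 bHLH factors, 1 rose and 7 fell (median -0.26). Tfeb, the master activator of lysosomal and autophagy genes, fell from 31.04 to 7.74 RPKM (1760 and 590 exon reads, 4.01-fold lower, interval 3.65 to 4.41), with intron reads from 649 to 287 (3.04-fold lower, interval 2.64 to 3.51). Its relatives Tfe3, at 5.25 and 3.0 RPKM, and Mitf, at 2.07 and 1.44 RPKM, were not called. Mnt and Mxd4, antagonists of Myc, fell from 1.94 to 0.52 RPKM and 6.19 to 1.95 RPKM, and Tcf15, a factor of epiblast cells, from 6.33 to 2.57 RPKM. The rise was Id1, an inhibitor of bHLH factors and a target of BMP signals, from 0.85 to 3.13 RPKM. Forkhead, SOX and TCF factors, 25 measured, held 1 rise, Foxc1, and 4 falls (median -0.55). Foxo3, a factor of starvation and quiescence that insulin signals keep out of the nucleus, fell from 16.2 to 4.73 RPKM (3.42-fold lower, interval 3.12 to 3.75), with 850 and 475 intron reads, while Foxo1 was not called, at 3.41 and 2.32 RPKM.

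Signal-driven and cell cycle factors, 73 measured, held 4 rises and 13 falls (median -0.35), and the 4 rises were all of 1 family. E2f3 rose from 1.11 to 4.04 RPKM (3.63-fold, interval 2.82 to 4.72), E2f8 from 3.91 to 13.9 RPKM (3.56-fold, interval 3.07 to 4.15) and E2f1 from 2.58 to 5.86 RPKM (2.27-fold, interval 1.82 to 2.86). Tfdp1, the dimerisation partner of E2f1 and E2f3, rose from 3.42 to 8.53 RPKM (2.5-fold, interval 2.04 to 3.08). These factors control genes of DNA replication, E2f1 and E2f3 as activators and E2f8 as a repressor late in the cycle. Introns passed for E2f1 (26 to 103 reads) and E2f8 (57 to 165), and had log2 ratios of 0.57 for E2f3 and 0.27 for Tfdp1. E2f4, E2f5 and E2f6 were not called, with log2 ratios of 0.25, 0.32 and 0.83. Among the falls, Stat3, which carries signals of LIF and IL-6, dropped from 35.8 to 12.7 RPKM (2.82-fold lower, interval 2.65 to 3.0, intron reads 626 and 349), Mef2d from 9.6 to 2.79 RPKM and the NF-kappaB subunit Rel from 5.18 to 2.14 RPKM. Irf1 and Irf9, factors of the interferon response, fell from 2.06 to 0.72 RPKM and 5.1 to 1.64 RPKM.

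Since the E2F factors rose, the promoters of E2f3 and of Cdc6 and Hells, a pair of rising genes that E2F proteins are known to drive, are shown with their E2F motif in capitals, as bases before the start site in the RefSeq promoter table. E2f3 covers chr13:29986064-29986143 (minus strand), Cdc6 chr11:98907977-98908056 (plus strand) and Hells chr19:38930892-38930971 (plus strand), on GRCm38.p6, 5′ to 3′ along the gene.
E2f3: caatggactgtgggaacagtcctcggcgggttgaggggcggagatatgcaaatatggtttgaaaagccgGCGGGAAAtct
Cdc6: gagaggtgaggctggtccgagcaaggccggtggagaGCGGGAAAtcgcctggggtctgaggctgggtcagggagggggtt
Hells: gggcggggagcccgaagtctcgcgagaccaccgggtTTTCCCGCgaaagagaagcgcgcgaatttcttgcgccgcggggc
Cdc6, the loader of the replicative helicase, rose from 1.4 to 6.04 RPKM (4.3-fold, interval 3.45 to 5.42), with 25 and 88 intron reads, and Hells, a chromatin remodeller of replicating cells, from 12.4 to 38.8 RPKM (3.13-fold, interval 2.84 to 3.44), with 228 and 577. The E2F motif was searched as TTTGGCGC, TTTCGCGC, TTTCCCGC or TTTGCCGC on both strands in 300 bases, 250 before the start and 50 after. It was in 25 of 443 promoters of higher genes (5.64%), 24 of 817 of lower genes (2.94%) and 354 of all 7710 matched genes (4.59%). The share in higher genes was close to that of all genes. Promoters were matched by symbol for 7710 of the 10556 genes.

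The other motifs had shares in rising genes near the background too. The cAMP response element TGACGTCA was in 2.71% of promoters of higher, 2.69% of lower and 3.55% of all genes, the AP-1 motif TGANTCA in 4.74%, 5.39% and 4.37%, and the E-box CACGTG in 10.4%, 11.02% and 11.2%, which includes every CLEAR motif. The antioxidant response element, TGAC followed by GC after 3 bases of any kind, was in 13.8%, 12.5% and 15.01%. The full estrogen response element, GGTCA and TGACC separated by 3 bases, was in 0 of the 7710 windows. CLEAR motifs, the form that TFEB binds, in which the E-box has GT before it and AC after it, were in 2 of 443, 7 of 817 and 66 of 7710. Igf2r, Lats2, Hdac5, Rab24, Crebrf, Ogdhl and Ilvbl are the 7 that fell, and Eme1 and Mrps18c the 2 that rose. The share in lower genes, 0.86%, was that of all genes, 0.86%. The sterol response element, searched as ATCACC followed directly by CCAC, was in 1 promoter of a higher gene, Pla2g12a, and in 2 of all. A heat shock element, GAA, TTC and GAA each 2 bases apart, was in 23 of 7710 promoters, 2 of them of higher genes, Hsph1 and Hspe1, and 2 of lower genes, Bst2 and Nr1h2. Ldha, the gene with the largest rise among those with a cAMP response element, and Hspe1 are shown because both rose, with the motif in capitals, at chr7:46845724-46845803 (plus strand) and chr1:55088025-55088104 (plus strand).
Ldha: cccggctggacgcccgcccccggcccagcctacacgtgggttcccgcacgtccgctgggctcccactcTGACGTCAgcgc
Hspe1: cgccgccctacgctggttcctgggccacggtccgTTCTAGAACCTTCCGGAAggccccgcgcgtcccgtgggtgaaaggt
Hsph1, a nucleotide exchange factor of Hsp70, rose from 20.2 to 94.05 RPKM (4.66-fold, interval 4.38 to 4.97), with intron reads from 237 to 913. Hspe1, the mitochondrial co-chaperonin, rose from 27.8 to 61.5 RPKM (2.21-fold, interval 1.89 to 2.58), with 29 and 82, and in Hspe1 a pair of overlapping matches makes up the capitals. A motif match describes the sequence and does not show binding.

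Lineage factors moved in both directions. Of 35 homeobox factors, 3 rose and 6 fell (median -0.24). Cdx2 (ENSMUSG00000029646, chromosome 5, 147300805 to 147307270), the defining factor of trophectoderm, fell from 113 to 34.8 RPKM (3.23-fold lower, interval 3.04 to 3.44), with intron reads from 302 to 135 (3.01-fold lower, interval 2.45 to 3.71), and Msx2 from 5.14 to 1.63 RPKM. Hoxd3 and Hoxd4, neighbours in 1 cluster whose spans overlap, fell from 2.42 to 0.58 RPKM and 5.01 to 1.44 RPKM. Irx3 and Otx2 were among the rises, from 1.15 to 4.87 and 0.41 to 1.52 RPKM. GATA, T-box, AP-2, TEAD, GRHL and ETS factors, 36 measured, held 1 rise and 8 falls (median -0.28). The rise was Elf5, a factor of trophoblast stem cells, from 30.1 to 81.3 RPKM (2.7-fold, interval 2.51 to 2.91), with 200 and 380 intron reads. Tead2, Tbx3, Gata3 and Grhl2 fell from 37.4 to 13.4 RPKM, 21.1 to 8.21 RPKM, 48.01 to 21.1 RPKM and 19.6 to 9.18 RPKM. Of 18 nuclear receptors, 1 rose, Hnf4a, from 0.59 to 1.87 RPKM, and 6 fell (median -0.74). Nr5a2, an activator of pluripotency genes, fell from 24.8 to 9.6 RPKM (2.58-fold lower, interval 2.32 to 2.86), with a larger ratio in introns (1423 and 483 reads, 3.96-fold lower, interval 3.57 to 4.4). The retinoid X receptors Rxra and Rxrb fell from 8.64 to 3.93 RPKM and 19.2 to 8.66 RPKM, their partner Nr1h2, the liver X receptor beta, from 17.4 to 7.45 RPKM, and Rara from 1.76 to 0.66 RPKM. C2H2 zinc finger factors, the largest list with 324 measured, held 7 rises and 36 falls (2.16% and 11.1%, median -0.17), the falls at about the share of all genes. Zfp459 rose from 2.14 to 8.16 RPKM, and Zfp949 fell from 5.34 to 1.25 RPKM with 917 and 288 intron reads.

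Receptors, 184 measured in 6 lists, held 18 rises (9.78%, against 6.66% of all genes) and 30 falls (16.3%, against 11.5%), with a median of -0.24. With median-ratio scaling the counts were 22 and 24 (12% and 13%, against 8.5% and 9.24% of all genes). Receptor tyrosine kinases, 27 measured, held no rise and 11 falls (median -0.79), the highest share of falls among the 6 receptor lists. Erbb3 and Erbb2, partners in 1 receptor for neuregulins, fell to 4.93-fold (4.54 to 5.35) and 3.35-fold (3.05 to 3.68) lower, with intron reads of 127 and 49 and 173 and 74. The insulin receptor Insr fell from 12.4 to 4.24 RPKM (2.93-fold lower, interval 2.58 to 3.33), and Igf1r from 1.09 to 0.51 RPKM with 243 and 385 intron reads. Of the FGF receptors, Fgfr4 fell from 29.6 to 10.2 RPKM (2.88-fold lower, interval 2.62 to 3.17) and Fgfr3 from 3.05 to 0.72 RPKM. The more abundant Fgfr2 and Fgfr1 were not called, at 54.5 and 34.5 RPKM and 17.1 and 9.41 RPKM, although the introns of Fgfr1 were 2.21-fold (1.93 to 2.54) lower. Egfr was not called either, at 0.82 and 1.21 RPKM. The ephrin receptors Ephb3 and Ephb6, the phagocytic receptor Mertk, Pdgfrb and Lmtk3 made up the remaining falls.

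Cytokine, interferon, TNF and Toll-like receptors, 30 measured, held 5 rises and 4 falls (median -0.18). Tnfrsf9, the co-stimulatory receptor 4-1BB, rose from 13.4 to 35.9 RPKM (2.68-fold, interval 2.42 to 2.98), with intron reads from 81 to 301 (2.76-fold, interval 2.16 to 3.58). Il6ra, the IL-6 receptor, rose from 2.62 to 6.77 RPKM, and Il13ra1, Ngfr and Tnfrsf19 rose from under 1 RPKM. Csf3r, the receptor of granulocyte colony-stimulating factor, fell from 31.9 to 6.18 RPKM (5.16-fold lower, interval 4.63 to 5.77), with intron reads from 771 to 218. Of the LIF receptor, neither Lifr, at 10.2 and 8.85 RPKM, nor Il6st, at 9.2 and 6.93 RPKM, was called. The signal inhibitors Socs3 and Cish, which STAT proteins induce, fell from 51.4 to 19.9 RPKM (2.58-fold lower, interval 2.38 to 2.79) and from 6.19 to 1.05 RPKM (5.91-fold lower, interval 4.22 to 8.43). G protein-coupled receptors, 42 measured, held 6 rises and 6 falls (median -0.16). Lpar1, a receptor of lysophosphatidic acid, rose from 6.72 to 14.4 RPKM (2.15-fold, interval 1.91 to 2.41, intron reads 312 and 656), Lpar6 from 1.11 to 2.31 RPKM, and the chemokine receptor Cxcr2 from 3.35 to 12.1 RPKM (3.61-fold, interval 2.92 to 4.49). Csf3r and Cxcr2 also mark neutrophils, as do S100a8 and S100a9, which rose from 23 to 122 and 40 to 202 exon reads, and Camp, Ngp and Elane, which had 0 reads in both libraries. The part of such cells in these results was not tested. Adora1, an adenosine receptor, rose from 1.15 to 2.65 RPKM, and P2ry4, a receptor of uridine nucleotides, fell from 1.13 to 0.23 RPKM.

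Endocytic and lipoprotein receptors, 30 measured, held 3 rises (Tfrc, Lrp8 and Sdc1) and 4 falls (median -0.17). Igf2r, which carries lysosomal enzymes and takes up IGF2, fell from 36.1 to 15.7 RPKM (4532 and 2638 exon reads, 2.31-fold lower, interval 2.2 to 2.42), and Sorl1 from 2.43 to 0.89 RPKM. Lrp8 rose from 0.20 to 0.87 RPKM with 179 and 273 reads on its opposite strand, more than its 22 and 127 exon reads. Integrins and tetraspanins, 31 measured, held 3 rises and 2 falls (median -0.03). Itga7, a laminin receptor, rose from 1.5 to 9.55 RPKM (6.38-fold, interval 5.12 to 8.03), with introns from 34 to 238 (5.21-fold, interval 3.62 to 7.7), and Itgb3, a vitronectin receptor, from 1.0 to 2.39 RPKM. Cd82, a tetraspanin, fell from 49.5 to 11.6 RPKM (4.27-fold lower, interval 3.85 to 4.75). The 24 receptors of TGF-beta, Notch, Wnt and guidance cues held 1 rise (Nrp2, 0.25 to 1.19 RPKM) and 3 falls (Notch1, Neo1 and Plxnb2), with a median of -0.30. Nrp2 had 29 and 184 exon reads beside 40 and 80 on its opposite strand.

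Secreted ligands, 62 measured, held 9 rises and 15 falls (14.5% and 24.2%), both more frequent than in genes at large. Their median log2 ratio was -0.09, and 0.02 with median-ratio scaling, where that of all genes was 0.04. Manf, a factor of endoplasmic reticulum stress, rose from 34.6 to 90.9 RPKM (2.63-fold, interval 2.35 to 2.94), and Pdgfa from 14.4 to 30.1 RPKM. Nrg1, a ligand of the falling ErbB receptors, rose from 0.27 to 1.36 RPKM on 11 and 73 exon reads, with 146 and 362 reads in its long introns. The opposite strand of Nrg1 held more reads than its exons, 26 and 85, so its rise is uncertain. Wnt11 rose from 0.39 to 1.27 RPKM. Rspo3, an enhancer of Wnt signals, had 74 and 4 exon reads (24.9-fold lower, interval 9.31 to 93.7). Other Wnt ligands fell, Wnt3a with intron reads of 211 and 61 and Wnt6 with 205 and 64. Lif fell from 35.8 to 9.55 RPKM (3.75-fold lower, interval 3.44 to 4.08, intron reads 199 and 84), a cytokine that uterine glands also make, and Il6 fell from 19.5 to 6.1 RPKM (3.19-fold lower, interval 2.59 to 3.96). Grn, the progranulin of lysosomes, fell from 33.96 to 10.3 RPKM, and Efnb2 from 55.1 to 25.9 RPKM.

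**Figure D3:**
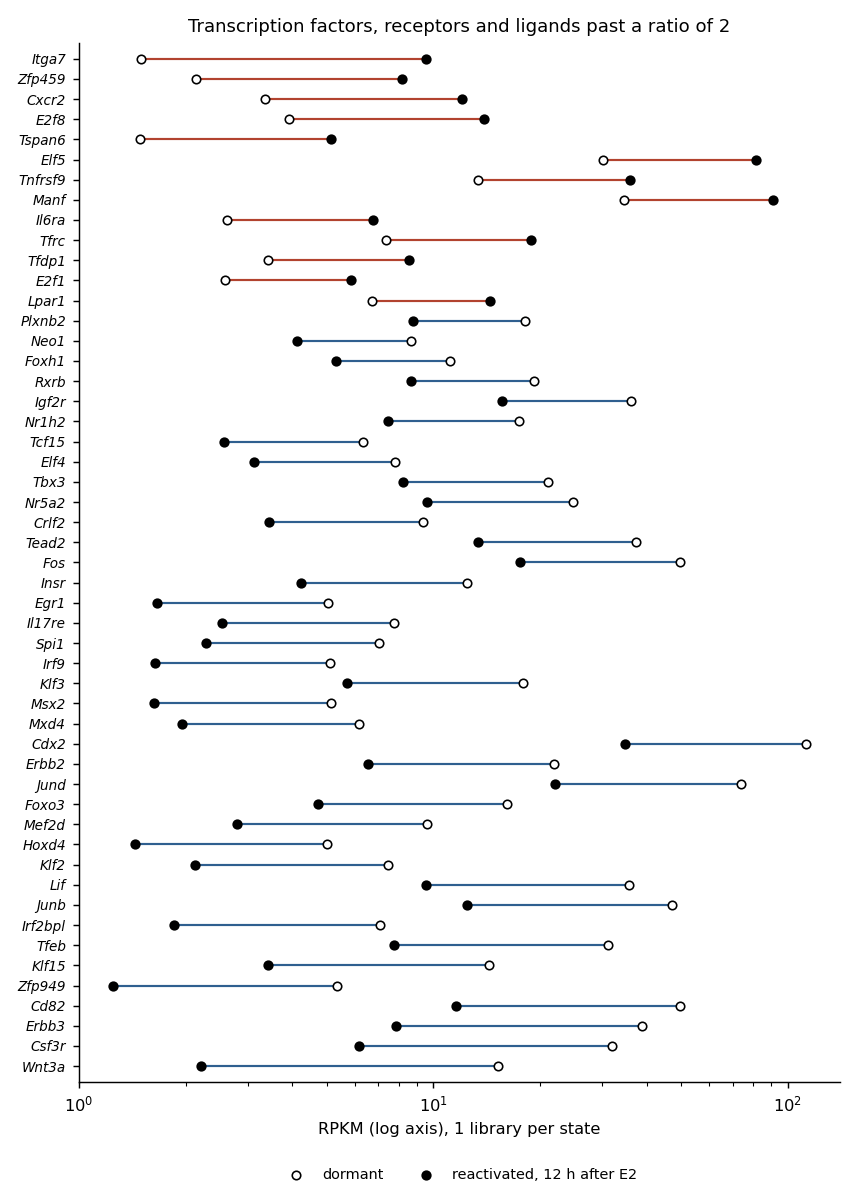
RPKM (log axis) in the dormant (open circle) and reactivated (filled circle) library of the 51 named transcription factors, receptors and ligands that reached 5 RPKM in either library, 1 library per state, ordered by ratio. The 13 at the top rose (red), among them E2f8, Tfdp1 and E2f1, and the 38 below fell (blue).

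Enzymes, 1866 measured in 10 lists, held 125 rises (6.70%) and 191 falls (10.2%), close to the shares of all genes, with a median of -0.06. With median-ratio scaling 158 rose and 156 fell, with a median of 0.05 against 0.04 for all genes. Single lists differed from that. Oxidoreductases of alcohols, retinoids and xenobiotics, 104 measured, had 18 rises and 13 falls (17.3% and 12.5%, median 0.08). Plod2 and P4ha1, which hydroxylate lysine and proline of collagen, rose from 7.3 to 29.9 RPKM (4.1-fold, interval 3.67 to 4.59) and from 6.25 to 23.04 RPKM (3.69-fold, interval 3.27 to 4.17). Maoa, the monoamine oxidase, rose from 1.88 to 9.91 RPKM (5.27-fold, interval 4.3 to 6.51), with 128 and 245 intron reads, and Hmox1, heme oxygenase, from 26.5 to 86.4 RPKM (3.26-fold, interval 2.98 to 3.57). Adh1, an alcohol and retinol dehydrogenase and the most abundant gene of this list in dormant blastocysts, fell from 1375 to 237 RPKM (5.81-fold lower, interval 5.65 to 5.98), with intron reads from 1517 to 512. Hsd17b6 and Hsd3b7, of steroid and bile acid metabolism, fell from 11.6 to 2.84 RPKM and 3.18 to 0.93 RPKM.

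Sugar, glycogen and glycan enzymes, 193 measured, held 16 rises and 17 falls (8.29% and 8.81%, against 6.66% and 11.5% of all genes, median 0.07). Ldha, lactate dehydrogenase A, rose from 3.55 to 24.6 RPKM (6.92-fold, interval 5.63 to 8.6), with intron reads from 21 to 124, and Pkm, pyruvate kinase, from 18.5 to 72.4 RPKM (3.92-fold, interval 3.59 to 4.29), with 320 to 981. Pgk1 rose from 0.54 to 4.72 RPKM with 101 and 204 intron reads, and it has processed copies in the genome that could take its reads, so its level is uncertain. Ldha and the lactate exporter Slc16a3 thus both rose. Hk2, hexokinase, and Gpi1 were not called, at 103 and 115 RPKM and 23.3 and 32.2 RPKM. The pyruvate dehydrogenase kinases went apart, Pdk1 rising from 2.19 to 6.42 RPKM (2.94-fold, interval 2.4 to 3.61) and Pdk2 falling from 3.56 to 0.93 RPKM (3.83-fold lower, interval 2.63 to 5.66). Hkdc1, a hexokinase-like enzyme, fell from 5.11 to 1.23 RPKM, and the sialidase Neu3 had 65 and 8 exon reads (10.9-fold lower, interval 5.23 to 26.4). St3gal4, a sialyltransferase, rose from 0.31 to 1.32 RPKM on 9 and 51 exon reads with 84 and 62 intron reads, and 19 and 29 reads on its opposite strand.

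Amino acid, one-carbon and nucleotide enzymes, 127 measured, held 15 rises and 9 falls (11.8% and 7.09%, median 0.16). Psat1 and Psph, steps of serine synthesis, rose from 10.3 to 35.04 RPKM (3.4-fold, interval 3.0 to 3.86) and from 3.49 to 9.23 RPKM, with intron reads of Psat1 from 79 to 247. Rrm1 and Rrm2, the subunits of ribonucleotide reductase, rose from 21.5 to 51.2 RPKM (2.38-fold, interval 2.21 to 2.57) and 7.01 to 16.1 RPKM (2.29-fold, interval 1.96 to 2.7). Ctps, Nme1 and Upp1, further enzymes of nucleotide supply, rose from 10.9 to 23.01 RPKM, 33.9 to 94.7 RPKM and 16.9 to 52.9 RPKM. Introns passed for Rrm1, Rrm2 and Nme1, with log2 ratios of 1.32, 2.11 and 1.36, and not for Upp1, at 0.03. Cda, cytidine deaminase, which salvages pyrimidines, fell from 4.68 to 0.33 RPKM (14.2-fold lower, interval 5.74 to 45.7, 53 and 5 exon reads). Arg1, arginase, which splits arginine into ornithine and urea, fell from 4.73 to 0.33 RPKM (14.2-fold lower, interval 7.17 to 31.99). Adssl1, of AMP synthesis in muscle, fell from 10.7 to 1.6 RPKM, the neuronal nitric oxide synthase Nos1 from 10.4 to 2.73 RPKM and Bckdha, of branched-chain amino acid breakdown, from 29.7 to 9.99 RPKM.

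Lipid and sterol enzymes, 187 measured, held 24 rises and 24 falls (12.8% each, median -0.01). Fads2 and Fads3, fatty acid desaturases, rose from 0.54 to 3.84 RPKM (7.13-fold, interval 4.59 to 11.6) and 0.39 to 1.86 RPKM, and Pla2g10, a secreted phospholipase, from 2.89 to 16.6 RPKM (5.75-fold, interval 4.21 to 8.03), with introns from 24 to 111. Acss1 and Acsf2, mitochondrial enzymes that activate acetate and fatty acids, fell from 25.1 to 3.85 RPKM (6.52-fold lower, interval 5.7 to 7.47) and 10.7 to 1.5 RPKM (7.14-fold lower, interval 5.69 to 9.05). Pnpla7, a lysophospholipase, fell from 13.1 to 2.55 RPKM, and Smpd1, the acid sphingomyelinase of lysosomes, from 44.8 to 11.7 RPKM (3.82-fold lower, interval 3.46 to 4.23). Phosphatases of proteins and lipids, 143 measured, held 5 rises and 16 falls (3.5% and 11.2%, median -0.07). The share of falls was near the 11.5% of all genes. Plpp1 and Plpp3, which dephosphorylate lysophosphatidic acid at the cell surface, exchanged places. Plpp1 rose from 2.21 to 27.7 RPKM (51 and 860 exon reads, 12.5-fold, interval 9.45 to 16.98), with introns from 179 to 547, and Plpp3 fell from 18.4 to 5.75 RPKM (3.2-fold lower, interval 2.82 to 3.64), with introns from 1097 to 423. The opposite strand of Plpp1 held 59 and 103 reads, more than its exons in the dormant library. Alpl, tissue-nonspecific alkaline phosphatase, fell from 368 to 96.4 RPKM (3.82-fold lower, interval 3.69 to 3.96), and Dusp4, a phosphatase of MAP kinases, from 26.2 to 10.4 RPKM.

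Protein kinases, 262 measured, held 11 rises and 24 falls (4.20% and 9.16%, median -0.26). Melk and Pbk, kinases of dividing cells, rose from 2.76 to 9.91 RPKM (3.59-fold, interval 2.88 to 4.51) and 1.29 to 4.59 RPKM, Plk3 from 5.22 to 14.8 RPKM, and Cdk14 from 4.53 to 12.1 RPKM (2.68-fold, interval 2.38 to 3.02, intron reads 1602 and 3716). Ulk1, the kinase that starts autophagy, fell from 13.1 to 3.03 RPKM (4.33-fold lower, interval 3.8 to 4.95, intron reads 496 and 276). Eif2ak3, or PERK, a sensor of endoplasmic reticulum stress, fell from 18.9 to 4.15 RPKM (4.56-fold lower, interval 4.04 to 5.14), and Nuak1, an AMPK-related kinase, from 22.3 to 3.91 RPKM (5.7-fold lower, interval 5.08 to 6.39), with introns from 489 to 141. GTPases and their regulators, 241 measured, held 10 rises and 25 falls (4.15% and 10.4%, median -0.14), against 6.66% and 11.5% of all genes. Vav3, an activator of small GTPases, rose from 0.75 to 6.34 RPKM (8.45-fold, interval 6.41 to 11.3), with introns from 115 to 505. Its exon reads were 55 and 625, beside 76 and 157 on its opposite strand. Rhob, a small GTPase, fell from 97.9 to 16.7 RPKM (5.87-fold lower, interval 5.0 to 6.92), Arl14 from 26.4 to 1.18 RPKM (22.5-fold lower, interval 13.8 to 39.1) and Rragd, which ties mTORC1 to lysosomes, from 39.6 to 10.4 RPKM (3.79-fold lower, interval 3.53 to 4.08), with introns from 372 to 143.

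Proteases and their inhibitors, 85 measured, held 9 rises and 10 falls (10.6% and 11.8%, against 6.66% and 11.5% of all genes, median -0.03). Adamts8, a secreted metalloprotease, had 9 and 221 exon reads (18.3-fold, interval 9.45 to 40.5), beside 44 and 34 on its opposite strand. Ctsll3, a cathepsin of the placental family, rose from 2.34 to 11.6 RPKM, and Ctsc, cathepsin C, from 18.2 to 47.9 RPKM (2.63-fold, interval 2.38 to 2.91, intron reads 370 and 1377). Ctsa and Dpp7, lysosomal peptidases, fell from 75.6 to 34.3 RPKM and 40.1 to 14.8 RPKM, and Enpep, an aminopeptidase of the cell surface, from 64.1 to 23.5 RPKM (2.73-fold lower, interval 2.58 to 2.88), with a larger intron ratio (4.83-fold lower, interval 4.04 to 5.8). Cathepsin genes thus moved both ways. Ubiquitin and SUMO enzymes, 326 measured, held 10 rises and 31 falls (3.07% and 9.51%, median -0.12). Rnf128, a ubiquitin ligase of the endosome, rose from 12.3 to 53.4 RPKM (4.35-fold, interval 3.98 to 4.76), Trim29 from 0.54 to 4.74 RPKM (8.71-fold, interval 5.58 to 14.3) and Fbxo5, an inhibitor of the anaphase-promoting complex, from 3.85 to 11.2 RPKM. Rnf225 fell from 18.4 to 4.14 RPKM. Enzymes that modify chromatin and RNA, 203 measured, held 9 rises and 22 falls (4.43% and 10.8%, median -0.05), the falls near the share of all genes. Ung, which removes uracil from DNA, rose from 9.92 to 29.3 RPKM (2.95-fold, interval 2.6 to 3.36), and Tet2, which oxidises methylated cytosine, fell from 25.2 to 7.82 RPKM (3.22-fold lower, interval 3.02 to 3.44), with introns from 678 to 349.

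**Figure D4:**
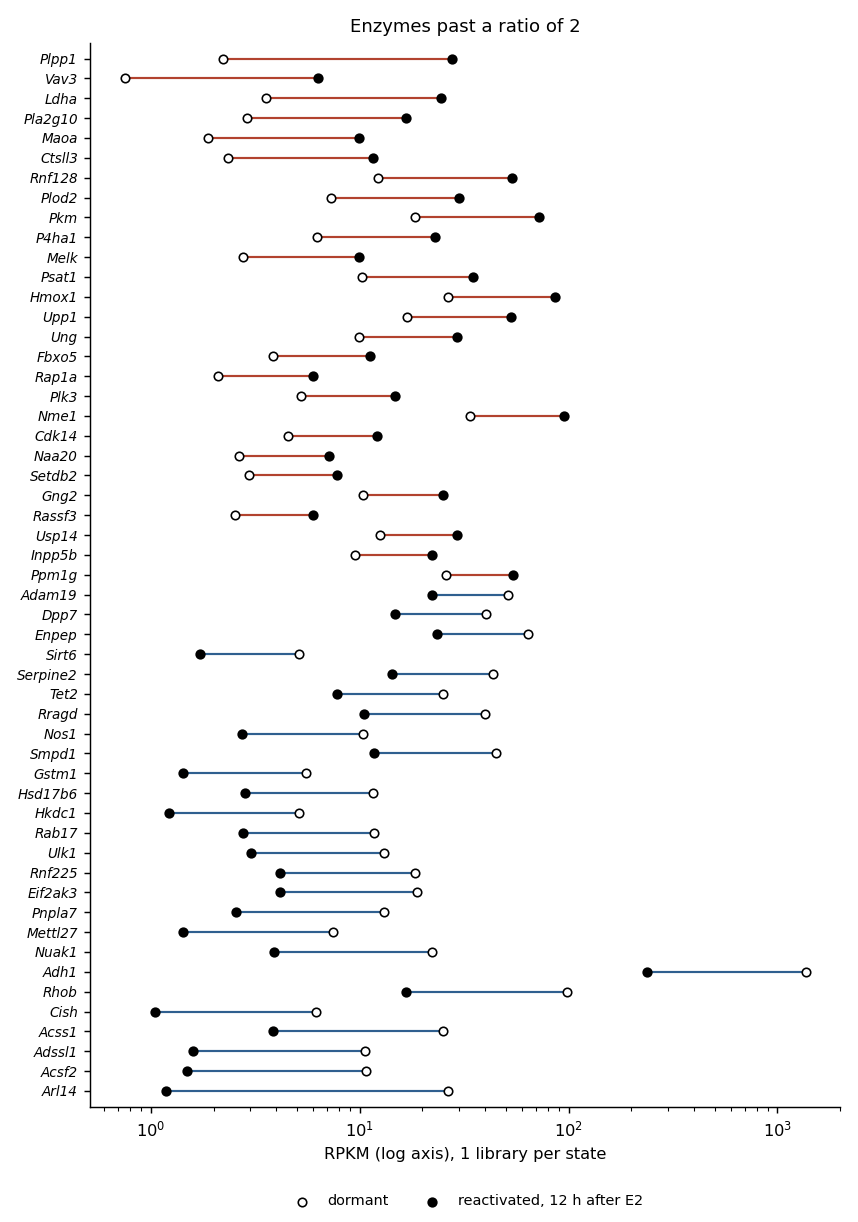
RPKM (log axis) in the dormant (open circle) and reactivated (filled circle) library of the 53 named enzymes and regulators that reached 5 RPKM in either library, 1 library per state, ordered by ratio. The 27 at the top rose (red), led by Plpp1 from 2.21 to 27.7 RPKM, and the 26 below fell (blue), among them Adh1 from 1375 to 237 RPKM.

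**Figure D5:**
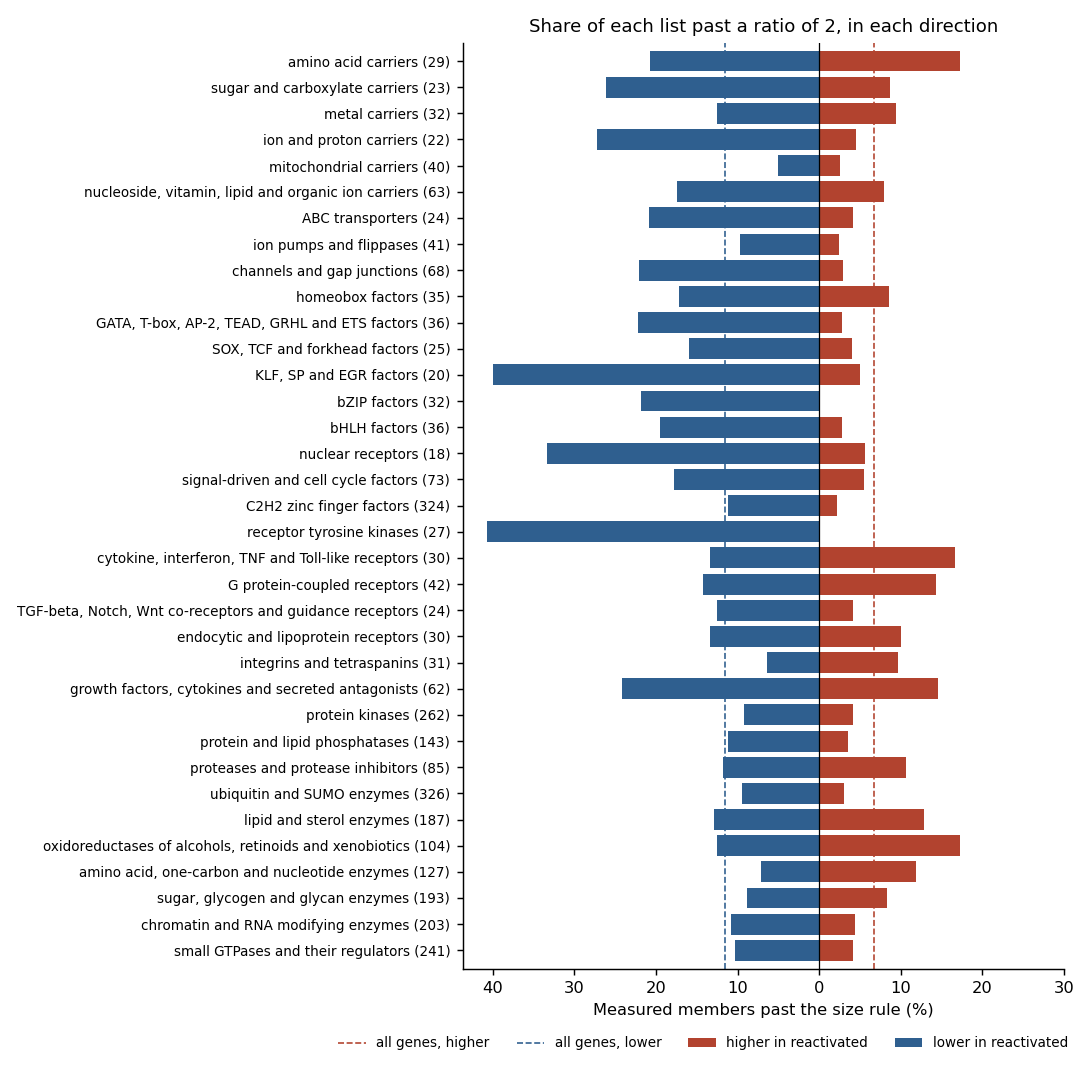
Share of the measured members of each of 35 lists that were at least 2 times higher (red, to the right) or at most 0.5 times the dormant level (blue, to the left), in percent, with the number measured in brackets; dashed lines give the shares of all 10556 genes, 6.66% and 11.5%. Receptor tyrosine kinases (11 of 27) and KLF, SP and EGR factors (8 of 20) reach farthest to the left, and oxidoreductases (18 of 104) and amino acid carriers (5 of 29) farthest to the right.

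The label blastocyst was checked against markers. All 23 trophectoderm, 20 epiblast and 21 primitive endoderm markers had reads in both libraries, with summed levels of 2360 and 2435 RPKM, 465.6 and 411 RPKM, and 953 and 837 RPKM in dormant and reactivated blastocysts. Of all genes, 6.66% rose and 11.5% fell. Of 20 measured trophectoderm markers, 3 rose (Plac1, Krt19 and Elf5) and 3 fell (Cdx2, Dab2 and Gata3), 15% each. Of 19 epiblast markers none rose and 5 fell (26.3%), namely Klf2, Tbx3, Nodal, Klf4 and Esrrb. With median-ratio scaling Nodal, Klf4 and Esrrb ended short of the limit, at log2 ratios of -0.94, -0.92 and -0.91. Pou5f1 had 87.1 and 124 RPKM and Nanog 14.6 and 17.7 RPKM. Of 20 primitive endoderm markers 1 rose and 2 fell (5% and 10%), the falls being Apoe (258 to 77.4 RPKM) and Rspo3.

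Markers of uterine cells were searched because embryos were flushed from the uterus. Of 22 uterine epithelium markers 11 were measured, with 1 rise and 4 falls (9.09% and 36.4%, against 6.66% and 11.5% of all genes). The list summed to 532 and 376 RPKM. Epcam and Klf5, at 135 and 115 RPKM and 127 and 62.05 RPKM, were among its most abundant genes, and the trophectoderm is also known to express them. The estrogen and progesterone receptors Esr1 and Pgr had 17 and 24 and 14 and 7 exon reads. Ltf and Areg, which estrogen induces in uterine epithelium, had 11 and 49 and 4 and 20 exon reads, under 1 RPKM. Stromal markers summed to 10.7 and 7.61 RPKM over 14 genes, with Col3a1 falling from 2.39 to 0.71 RPKM. Red blood cell markers summed to 0.780 and 0.620 RPKM over 8 genes, with Hba-a1 and Hba-a2 at 0 in both libraries. Immune markers summed to 69.5 and 64.1 RPKM over 27 genes, of which 7 were measured. S100a8, S100a9 and Cxcr2 rose, from 4.21 to 16.6 RPKM, 5.43 to 20.4 RPKM and 3.35 to 12.1 RPKM, while Csf3r, Laptm5, Cd14 and Cd68 fell. The neutrophil genes Camp, Ngp and Elane were at 0 in both, and Ptprc, or CD45, had 7 and 20 exon reads. Whether cells other than those of the embryo gave part of these reads was not tested. The same holds for Prap1, the largest rise and a gene of epithelia, which was in none of the marker lists.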

How the data were processed

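Total RNA of each pool of blastocysts was depleted of ribosomal RNA and sequenced as single 50-base SOLiD reads, per the labels' protocols. The authors deposited 1 table per library with a read count for each gene in exons, in introns, across splice junctions and on the opposite strand, together with the exon RPKM. The genome was GRCm38, per the submitters' processing notes. Aligner, counter and annotation were not given in the sources used here. RPKM as deposited by the authors, recomputed from exon count, exon length and library total, agreed within 2% or 0.011 for 31510 of 31510 genes in the dormant library and for all but Rlim in the reactivated one.

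Ratios were of reads scaled to those totals, and a gene was called at a ratio of 2 or more or 0.5 or less with at least 50 reads in the library with the higher level. Intervals at 95% were exact (Clopper-Pearson), from Python 3.11.15, numpy 2.4.6, pandas 2.3.3 and scipy 1.17.1, and the code was tested on simulated counts. Gene models came from GENCODE M21. Classes were 35 lists by gene symbol, plus 7 marker lists, and the genes, lists and comparison were chosen with earlier results of these data known. 6 symbols that matched a list by spelling alone were taken out after their values were seen. Named were up to 4 rises and 4 falls per list with at least 1 RPKM, the 12 largest rises and falls, and the 10 largest and smallest ratios of exon to intron ratio, in all 254 genes. Other members named were chosen after their values were seen, and some results are not reported here. Alternatives were other minimums, scalings, log2(RPKM + 1), junction reads, and sets without overlapping genes.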

Additional observations from a re-analysis of the deposited data

Results flagged for a closer look

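Reads that cross splice junctions on the strand opposite to the annotated gene entered no comparison above, and came to 6335 in the dormant and 7639 in the reactivated library, with no control library to set them against. Med12, a subunit of the Mediator complex, held 90 and 955 of them.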

How the results depend on the processing

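No paired analysis was possible because each state had 1 library, which also leaves none to be left out. The 2 intron medians kept their sign under each alternative run on them, while the order of paired counts did not always hold. The genes chosen to be named, 366 in all, were run under median-ratio scaling and log2(RPKM + 1). Neither alternative could have reversed the sign of a called gene, so its sign was not tested by them.

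The number of genes called followed the reads required. A minimum of 200 exon reads left 430 rises and 675 falls, and no minimum gave 2303 and 3312. On the log2(RPKM + 1) scale there were 458 and 677, and by junction reads 497 and 493, so that falls no longer outnumbered rises. Of 333 called genes chosen to be named, 243 kept their call on the log2(RPKM + 1) scale. Of the 84 counts by list, 40 moved by more than 1.5 times there and 12 with median-ratio scaling.

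The exon and intron comparison moved more. With exon and intron reads each scaled to their own total, 159 genes fell in both, the intron medians of higher and lower genes were 0.88 and -0.49, and the exon ratio exceeded the intron ratio by 2 times in 170 genes and fell short in 692. A minimum of 200 intron reads gave 44 rises and 150 falls shared with introns, medians of 0.50 and -0.99, and 219 against 67 genes. Genes overlapping no other gene gave 54 and 116, a lower median of -0.86, and 204 against 113. Minimums of 20 and 200 exon reads gave lower medians of -0.71 and -0.93, and the latter 116 genes with the exon ratio short of the intron ratio, against 497 with a minimum of 20 intron reads. Leaving out genes with more opposite-strand than exon reads gave -0.88. Genes whose introns held at least 4 times their opposite-strand reads, a choice made after seeing the data, gave 62 and 133, medians of 0.48 and -0.90, and 87. Subsets hold fewer genes by construction, and beyond that the cause was not tested. Leaving out genes with a nested small RNA and keeping protein-coding genes alone were also added after seeing the data, and moved none of the counts by more than 1.5 times.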
